A study of Rattus norvegicus with 16 samples.

Results

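The genes described are 10 genes of protein folding and stress signalling in the endoplasmic reticulum (ER), measured in the hypothalamus of male Wistar rats. They were chosen by symbol, as every probe set that the platform's annotation assigns to exactly 1 of Hspa5, Hsp90b1, Calr, Canx, Pdia3, Pdia4, Xbp1, Atf4, Ddit3 and Herpud1. This gave 10 of the 14217 genes named on the array, on 13 of the 31042 probe sets that are not array controls, 3 of them for Canx, 2 for Pdia3 and 1 for each other gene. All 13 passed the filter on dim probe sets, which kept 18625.

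The study used 16 rats aged 7 to 8 weeks, 1 array per rat and 4 rats in each of 4 groups. One group was put under restraint stress for 2 h, one inhaled the odorant (R)-(-)-linalool for 2 h while restrained, one inhaled it for 2 h without restraint, and the control group had neither. Linalool is a floral-smelling monoterpene alcohol of plant oils. The labels name no genetic change, and all rats had 1 week of acclimatization. The layout asks what restraint changes, what the odour changes, and whether the change with restraint differs when the odour is present. The RNA is of whole tissue, so a change in the mix of cells and a change in RNA per cell cannot be told apart.

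Proteins that enter the secretory pathway fold in the ER with the help of chaperones, and a surplus of unfolded protein there starts the unfolded protein response. Its sensors on the ER membrane lead to the transcription factors ATF6, XBP1 and ATF4, which raise chaperone genes, genes that dispose of misfolded protein and, under lasting stress, the gene of the death-promoting factor CHOP (Ddit3). In the hypothalamus this machinery serves neurons that make large amounts of secreted neuropeptide. Array signal reports the amount of transcript only, and the spliced and unspliced forms of Xbp1 mRNA, which mark the response, were not distinguished here.

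Promoter sequences are shown first, because a shared promoter element is the classic link between ER chaperone genes. Those printed are of Hspa5, Hsp90b1, Ddit3 and Herpud1, which rose with restraint on average, and of Xbp1, which did not pass. Atf4, which also rose on average, is not printed. RefSeq windows of build GRCr8, from 250 bases before to 50 after a transcript start, were matched by symbol for 9 of the 10 genes; Pdia3 was not matched. The ER stress response element (ERSE) was searched as CCAAT and CCACG with 9 bases of any kind between them, ERSE-II as ATTGG and CCACG with 1 base between them, the XBP1-type element as TGACGTGG and the ATF4-type composite element as TTGCATCA, each on both strands. An ERSE always holds a CCAAT box, and an ERSE-II holds one on its opposite strand. The bases before the start are given below 5′ to 3′ on the gene's strand, with capitals for these matches. The windows are chr3:38452766-38453015, plus strand for Hspa5, chr7:23012294-23012543, minus strand for Hsp90b1, chr14:84604373-84604622, plus strand for Xbp1, chr7:65001445-65001694, plus strand for Ddit3 and chr19:10614708-10614957, minus strand for Herpud1.
Hspa5: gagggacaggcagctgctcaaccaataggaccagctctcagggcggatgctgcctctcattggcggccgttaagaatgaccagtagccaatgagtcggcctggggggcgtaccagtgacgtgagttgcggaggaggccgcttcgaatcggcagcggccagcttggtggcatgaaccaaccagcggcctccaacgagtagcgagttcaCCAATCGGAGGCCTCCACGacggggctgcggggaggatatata
Hsp90b1: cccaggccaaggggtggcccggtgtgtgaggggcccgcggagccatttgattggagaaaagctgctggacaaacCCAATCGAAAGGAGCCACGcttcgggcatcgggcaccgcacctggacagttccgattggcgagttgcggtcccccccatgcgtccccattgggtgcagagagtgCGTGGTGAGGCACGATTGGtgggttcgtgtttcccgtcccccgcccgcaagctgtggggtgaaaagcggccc
Xbp1: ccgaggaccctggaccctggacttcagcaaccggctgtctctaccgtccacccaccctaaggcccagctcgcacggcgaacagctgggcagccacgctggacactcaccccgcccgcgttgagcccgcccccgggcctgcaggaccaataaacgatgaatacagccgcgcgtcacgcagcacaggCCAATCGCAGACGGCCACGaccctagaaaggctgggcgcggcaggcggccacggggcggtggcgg
Ddit3: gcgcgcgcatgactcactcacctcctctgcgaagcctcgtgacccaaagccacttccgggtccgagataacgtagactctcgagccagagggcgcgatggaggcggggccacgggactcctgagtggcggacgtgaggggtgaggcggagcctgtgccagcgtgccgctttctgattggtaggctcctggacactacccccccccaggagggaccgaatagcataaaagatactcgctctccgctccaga
Herpud1: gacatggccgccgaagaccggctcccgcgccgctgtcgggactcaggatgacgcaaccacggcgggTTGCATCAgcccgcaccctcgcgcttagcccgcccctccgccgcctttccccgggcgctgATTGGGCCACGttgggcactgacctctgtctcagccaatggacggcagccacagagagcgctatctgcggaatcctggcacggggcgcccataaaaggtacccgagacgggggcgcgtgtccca

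An exact ERSE stood in 5 of the 9 windows, against 0.0657% of all 33469 windows in the table. Hspa5 held it at positions -43 to -25 from the start, Xbp1 at -65 to -47, and Hsp90b1 at -176 to -158 and, on the opposite strand, at -72 to -54. In Calr it read CGTGGTCGACCCTGATTGG on the window's strand (positions -232 to -214) and in Canx CCAATCATCACGCTCCACG (positions -230 to -212). Herpud1 held an ERSE-II at -124 to -114, found in 0.0508% of all windows, and the ATF4-type element at -184 to -177, found in 0.795%. For Herpud1 and Canx the start used lies inside the gene's annotated span. The plain CCAAT box was in 8 of the 9 windows, against 37.5% of all. The heat shock element, searched as GAA, TTC and GAA with 2 bases between each (0.798% of all windows), the glucocorticoid response element, AGAACA and TGTTCT with 3 bases between (0.0149%), the cyclic AMP element TGACGTCA (1.83%) and TGACGTGG (0.595%) had no match in the 9 windows. Of the genes with an ERSE, Hspa5 and Hsp90b1 passed the test of restraint on average (below), and Calr, Canx and Xbp1 did not. Ddit3 and Atf4 passed without an exact ERSE, ERSE-II or ATF4-type match in their windows. The Ddit3 window reads cgtgccgctttctgattgg, where an exact ERSE on the opposite strand would begin CGTGG, so it nearly matches. Inexact matches and bases further upstream than the windows were not searched, so the lack of an exact match does not show that an element is absent. These are matches of letters only, and the genes had been listed as ER stress genes beforehand.

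**Figure D1:**
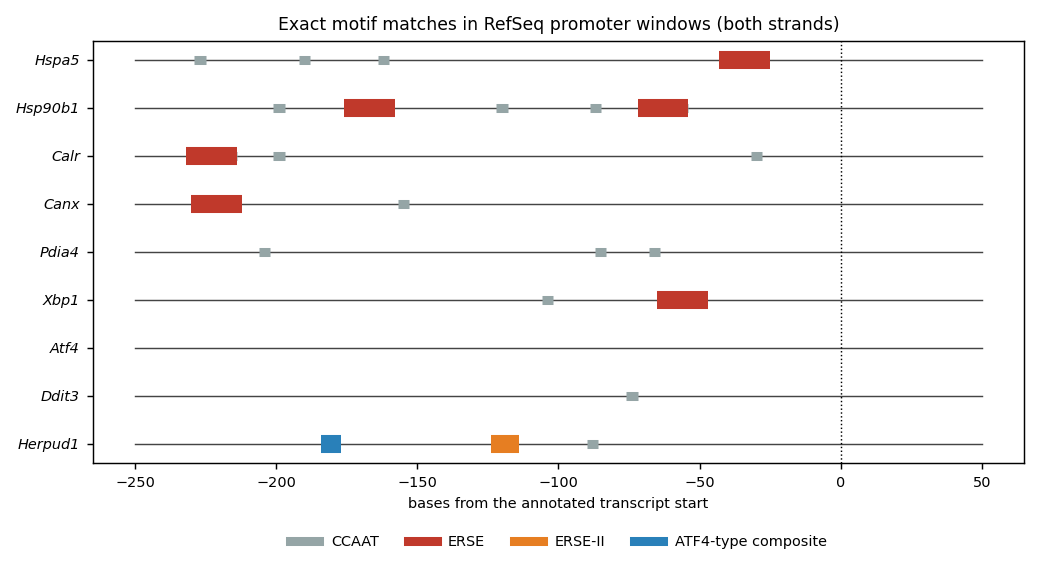
Exact motif matches in the RefSeq promoter windows of 9 genes, with the position in bases from the transcript start on the x axis and a row per gene. ERSE matches (red) lie in 5 rows, 2 of them in Hsp90b1, and Herpud1 carries the ERSE-II (orange) and ATF4-type (blue) matches.

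Several facts of the whole series touch these values. The deposited arrays differed in level, with medians from 67.03 to 127.4, and were brought to a common distribution before testing, so signals below are normalized and have no unit. A probe set's signal also depends on its probes, and levels of different genes are not set against each other. The hybridization spike-in BioC was high (793 to 898.2) on 3 arrays, 2 from linalool rats and 1 from a restrained rat with linalool, and 208.4 to 254.8 on the other 13. The hypothalamic peptides Hcrt, Pmch, Oxt and Avp had mean signals of 1142, 7542, 5623 and 4202. The thyrotropin genes Cga and Tshb, of pituitary-type cells, summed to 4418 to 6913 in restrained rats, 2233 to 5876 in restrained rats with linalool, 2622 to 4192 in linalool rats and 143 to 6812 in controls, where control rat 3 was the low one. The other listed pituitary genes, Gh1, Prl, Pomc and Fshb, averaged 32, 2, 8 and 43 and were too dim for the filter. Signals this low cannot tell absence from a probe set that does not report its gene. Of the 5 choroid plexus markers Kl, Kcnj13 and Cldn2 were also too dim. Ttr (mean 135, log2 0.51 with restraint on average) and Folr1 (mean 73, log2 0.07) were not called. The 5 summed to 190 to 711 in restrained rats with linalool. The sum was 197 to 270 in restrained rats, 188 to 272 in linalool rats and 168 to 270 in controls. Of the 5 microglia markers P2ry12 (log2 -1) and Cx3cr1 (-0.49) fell with restraint on average. Aif1 (-0.19), Csf1r (0.22) and C1qa (0.14) were not called. Of the 5 endothelial markers Slco1a4 (-0.34) fell, while Flt1 (0.40), Cldn5 (-0.21), Pecam1 (0.01) and Tek (-0.03) were not called. Microglia markers summed to 1867 to 2316 in restrained rats, 2071 to 3516 in restrained rats with linalool, 2068 to 2719 in linalool rats and 2413 to 2550 in controls. The 2 blood markers summed to 5344 to 9974 in restrained rats, 2684 to 6663 in restrained rats with linalool, 2948 to 7584 in linalool rats and 2926 to 5845 in controls, with 0 calls. With the summed Cga and Tshb signal as a covariate, 5 of the 13 ER probe sets passed in the average over odour conditions, as without it, and 1 (Herpud1) passed between restrained and control rats, against 4 without it. Calls over all probe sets fell too, to 625 from 784 on average and to 91 from 168 between restrained and control rats. The part of microglia, endothelium, choroid plexus and blood in the results on ER genes was not tested. No marker of neurons (5), astrocytes (5), oligodendrocytes (4) or hypothalamic peptides (9) passed the test there.

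Averaged over rats with and without linalool, 5 of the 13 probe sets rose with restraint, by 1.24- to 1.66-fold, and 0 fell. They were those of the chaperones Hspa5 and Hsp90b1, the degradation factor Herpud1, and the transcription factors Ddit3 and Atf4. Of all probe sets tested, 2.65% rose in that comparison. The lectin chaperones and the disulfide isomerases had positive differences too, but none of these passed the test. In all 13 probe sets the average difference was above 0, with a median of 0.24 on the log2 scale, against -0.011 over all probe sets. Tests were limma's moderated test across all 18625 kept probe sets with Benjamini-Hochberg adjustment, with 0.05 as the threshold on the adjusted p.

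Hspa5, also known as BiP or GRP78, is the ER member of the heat shock protein 70 family and the chaperone that keeps the stress sensors inactive until it is drawn away by unfolded protein. Its signal was 6251, 6148, 5247 and 6205 in restrained rats, against 4984, 3823, 3928 and 4296 in controls. With linalool it was 6335, 5994, 6587 and 5929 in restrained rats, against 4296, 5105, 4668 and 5125 in unrestrained ones. Every restrained rat lay above every unrestrained rat, whatever the odour. The lowest restrained rat, at 5247, stood close to the highest unrestrained ones. On average Hspa5 rose 1.35-fold with restraint (log2 0.43, SE 0.07, 95% interval 0.29 to 0.57, adjusted p = 0.00156).

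Without linalool the log2 difference of Hspa5 was 0.49 (SE 0.10, adjusted p = 0.0228), and with linalool 0.37 (SE 0.10, adjusted p = 0.0598). The call without linalool was lost in 10 of 30 alternatives. The value with linalool missed the threshold although its 4 restrained rats lay above all 4 unrestrained ones. It passed with pseudocount 64, the 60th percentile filter, limma's trend, the BioC split as a block and the beta-actin ratio as a covariate. It also passed without control rat 1, control rat 2 or both. The difference between these differences was itself not called (-0.11, 95% interval -0.40 to 0.17, adjusted p = 0.869). Within the 13 BioC-low arrays the average difference of Hspa5 was 0.49 (adjusted p = 0.00908).

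Hsp90b1, or GRP94, is the ER form of heat shock protein 90 and folds integrins and some receptors. It had signals of 3522, 3503, 3064 and 3222 in restrained rats, against 2544, 2524, 2529 and 2901 in controls. The values with linalool were 3628, 3644, 3373 and 3251 under restraint, against 2864, 2729, 3069 and 2782 without. Restrained rats lay above unrestrained ones within each odour condition, but restrained rat 3 (3064) and linalool rat 3 (3069) overlapped when both were pooled. Averaged over both, Hsp90b1 rose 1.24-fold (log2 0.31, SE 0.05, adjusted p = 0.00407). It was 0.34 without linalool (adjusted p = 0.0494) and 0.28 with it (adjusted p = 0.0827). The call without linalool was lost in 24 of 30 alternatives, and the difference ran from 0.29 to 0.41 over all 30. Within the BioC-low arrays the average was 0.27 (adjusted p = 0.0528).

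Calreticulin (Calr) and calnexin (Canx) are the lectin chaperones that hold newly made glycoproteins until they fold, Calr in the ER lumen and Canx in its membrane. Calr had signals of 2521 to 2815 in restrained rats, against 1706 to 2541 in controls, and 2624 to 2849 in restrained rats with linalool, against 2295 to 2591 in linalool rats. The restrained rats with linalool lay above those given linalool alone, while control rat 2 overlapped the restrained group. Its average difference of 0.24 (SE 0.07) did not pass (adjusted p = 0.0699). Without control rat 2 it was 0.29 and passed (adjusted p = 0.0195).

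The 3 Canx probe sets did not give one picture. The brightest, 1371686_at, was 3718 to 3947 in restrained rats, against 3552 to 4008 in controls, with an average difference of 0.01 and a 95% interval from -0.08 to 0.11. Probe set 1388442_at had an average difference of 0.17 (SE 0.06, adjusted p = 0.146), and 1371687_at one of 0.25 (SE 0.16, adjusted p = 0.432). On these 2, control rat 1 stood far below the other controls, at 325 against 829 to 907 on 1371687_at and at 1829 against 2329 to 2384 on 1388442_at. That array also had the highest beta-actin 3′ to 5′ ratio, at 2.30 on the log2 scale against 1.06 to 1.81 on the other arrays, where a high ratio marks loss of 5′ sequence. With the ratio as a covariate both average differences passed, at 0.27 (adjusted p = 0.0411) and 0.18 (adjusted p = 0.0406). Between restrained and control rats they were then 0.41 (adjusted p = 0.0694) and 0.22 (adjusted p = 0.133), and neither passed. The covariate has its highest value in control rat 1 itself. In the fit with no covariate, 1371687_at differed by -0.08 between restrained and control rats without control rat 1, against 0.26 with that rat.

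Pdia3 (ERp57) and Pdia4 (ERp72) are protein disulfide isomerases, and Pdia3 works on glycoproteins together with calnexin and calreticulin. Pdia4 had signals of 486 to 677 in restrained rats, against 501 to 563 in controls, and 574 to 748 in restrained rats with linalool, against 436 to 577 in linalool rats. The groups overlapped in both cases, and the average difference of 0.21 (SE 0.08) did not pass (adjusted p = 0.158).

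Pdia3 was the member with a difference by odour. On probe set 1398788_at it read 2683, 2637, 2426 and 2507 in restrained rats with linalool, against 2165, 1871, 1953 and 1964 in restrained rats without it. Linalool rats had 2009, 2341, 2055 and 2118, and controls 2037, 2212, 2104 and 1912. The rats that had both treatments stood above all 12 others. Among restrained rats the gene rose 1.29-fold with linalool (log2 0.36, SE 0.08, adjusted p = 0.0394), 1 of the 13 probe sets, where 0.596% of all probe sets rose. These groups did not overlap, as for 5.04% of all probe sets in that direction. The interaction, 0.32 (95% interval 0.09 to 0.55), was not called (adjusted p = 0.496). The call among restrained rats was lost with the BioC split as a block (0.34, adjusted p = 0.0872) and within the BioC-low arrays (0.35, adjusted p = 0.168). It was also lost without restrained rat 2, 3 or 4, without linalool rat 3 or 4, and without any 1 of the rats restrained with linalool. The rats given linalool alone are outside that comparison and enter it only through the shared variance. The dimmer probe set 1392920_at had signals of 205 to 305 in restrained rats with linalool, against 198 to 248 in restrained rats, a difference of 0.06 (adjusted p = 0.886).

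**Figure D2:**
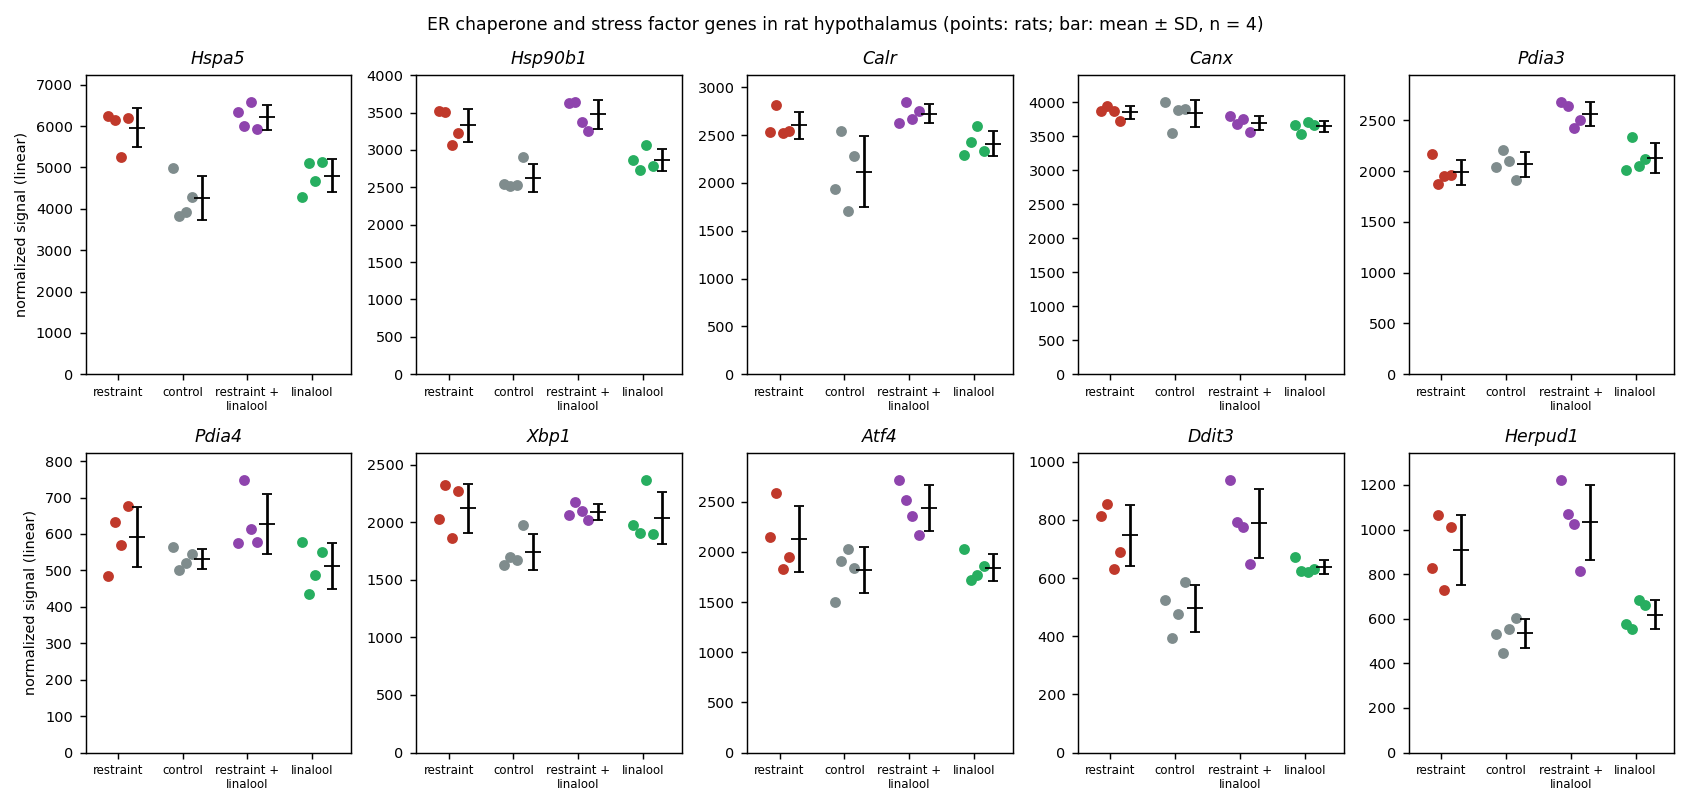
Normalized signal (linear, y axis from 0) of the 10 genes on each gene's brightest probe set, by group. Points are rats, and the black marks are mean ± SD (n = 4). Restrained rats lie above unrestrained rats for Hspa5, Hsp90b1 and Herpud1 within each odour condition, and Pdia3 is highest in restrained rats with linalool.

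Herpud1, a membrane protein of the ER that takes part in the disposal of misfolded proteins, had the largest difference of the 10 genes in each of the 3 restraint comparisons. It had signals of 828, 1066, 729 and 1012 in restrained rats, against 532, 445, 555 and 605 in controls. With linalool they were 1222, 1070, 1027 and 814 under restraint, against 575, 553, 686 and 662 without. All 8 restrained rats lay above all 8 unrestrained rats, as for Hspa5; of all probe sets, 0.671% were separated in this way and direction. On average Herpud1 rose 1.66-fold (log2 0.73, SE 0.10, 95% interval 0.52 to 0.94, adjusted p = 0.000493).

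Herpud1 passed the test both without linalool (0.74, SE 0.14, adjusted p = 0.0187) and with it (0.72, SE 0.14, adjusted p = 0.0165); both tests take their variance from all 16 arrays. With only the compared groups in the fit, the call without linalool was lost (adjusted p = 0.0808) and the call with linalool was kept (adjusted p = 0.0305). Over 30 alternatives each, the call was lost in 7 without linalool and in 4 with it. Within the BioC-low arrays its average difference was 0.70 (adjusted p = 0.0126).

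Ddit3 (CHOP), the factor that promotes cell death when ER stress lasts, had signals of 814, 856, 631 and 690 in restrained rats, against 524, 393, 478 and 587 in controls. With linalool the values were 937, 794, 776 and 647 under restraint, against 674, 623, 621 and 632 without. The restrained rats were separated from the controls, but in the presence of linalool the lowest restrained rat, 647, lay below linalool rat 1, at 674. On average Ddit3 rose 1.35-fold (log2 0.44, SE 0.09, adjusted p = 0.0132).

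Without linalool Ddit3 differed by 0.58 (adjusted p = 0.0437) and with linalool by 0.29 (adjusted p = 0.283). The call without linalool was lost in 21 of 30 alternatives, and the difference ran from 0.47 to 0.67 over all 30. The interaction of -0.29 was not called (adjusted p = 0.71). Within the BioC-low arrays the average was 0.42 (adjusted p = 0.082).

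Atf4, translated when general protein synthesis is held back and the activator of Ddit3, had signals of 2716, 2513, 2355 and 2169 in restrained rats with linalool, against 2031, 1716, 1769 and 1860 in linalool rats. These groups did not overlap. In restrained rats it was 2148, 2586, 1831 and 1946, against 1500, 1914, 2024 and 1842 in controls, and there the ranges overlapped. The average rise was 1.24-fold (log2 0.31, SE 0.08, adjusted p = 0.0444), and its call was lost in 17 of 29 alternatives. These were median scaling (adjusted p = 0.0725), no filter (0.0873), the replicate block (0.0661), the BioC block (0.0527), the BioC-low arrays (0.28, adjusted p = 0.187), control rats 1 and 2 left out together, and leaving out control rat 1 or 4, restrained rat 1 or 2, any 1 linalool rat, or rat 1, 2 or 3 of those restrained with linalool, where it ran from 0.26 to 0.33.

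Xbp1, whose mRNA is spliced by the sensor IRE1, had signals of 1864 to 2321 in restrained rats, against 1632 to 1974 in controls. With linalool it was 2016 to 2176 under restraint, against 1897 to 2367 without. Both pairs of ranges overlapped, and the average difference of 0.16 (SE 0.07) did not pass (adjusted p = 0.196). It was 0.28 without linalool (adjusted p = 0.214) and 0.04 with it (adjusted p = 0.881).

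**Figure D3:**
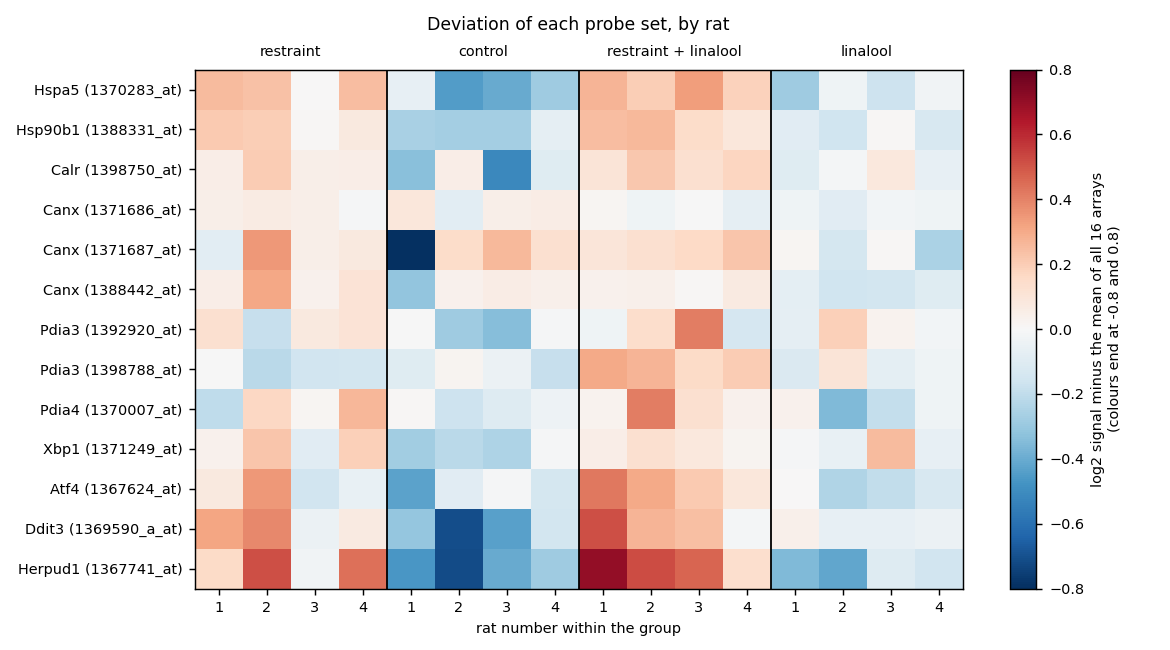
Log2 signal of each of the 13 probe sets in each rat, as the deviation from the mean of all 16 arrays (red above, blue below, colours ending at -0.8 and 0.8). Columns are rats 1 to 4 of each group. Restrained rats are mostly red and unrestrained rats mostly blue, with restrained rat 3 the palest of its group.

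Rat by rat, the genes moved together only in part. After removal of the group means, the 45 pairs of genes had a median Pearson correlation of 0.12 (-0.55 to 0.75). Of these pairs 30 were above 0. With the group means left in, the median was 0.52 and 41 were above 0. On their brightest probe sets, 5 to 10 of the 10 genes were above their own mean in each restrained rat, with or without linalool, against 0 to 3 of the 10 in each unrestrained rat. Restrained rat 3 was the one with 5, and its mean deviation was -0.03 on the log2 scale, against 0.09 to 0.21 in the other restrained rats. Controls had mean deviations of -0.26 to -0.12.

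Counts differed between the comparisons. Between restrained and control rats 4 of the 13 probe sets rose (Hspa5, Hsp90b1, Ddit3 and Herpud1) and 0 fell, where 0.628% of all probe sets rose. These 4 were also the ones without overlap between the groups, against 3.35% of all probe sets. Between restrained rats with linalool and linalool rats, 1 of the 13 rose (Herpud1) and 0 fell, where 1.12% of all rose. The groups of this comparison did not overlap for 8 of the 13, all higher under restraint, against 5.7% of all probe sets. Between restrained and control rats the count changed when single arrays were left out, including arrays outside this comparison. It was 0 without control rat 2, without restrained rat 2 and without restrained rat 4, 1 without control rat 3 or restrained rat 1, 2 without control rat 1 or any 1 linalool rat, and 2 without restrained rat 2 or 3 with linalool. It was 0 within the BioC-low arrays, which include all control rats and all restrained rats without linalool. Leaving out arrays of the linalool groups left the differences of this comparison unchanged, such as 0.49 for Hspa5 and 0.74 for Herpud1. Only the shared variance and the adjusted p-values changed. In the comparison under linalool the count was 0 within the BioC-low arrays, without linalool rat 1, and without rat 1 or 2 of those that were restrained with linalool, and 2 without control rat 1 or 2. Control rats are outside that comparison. The average over both odour conditions stayed between 4 and 6 with any 1 array left out, and was 2 within the BioC-low arrays (Hspa5 and Herpud1).

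**Figure D4:**
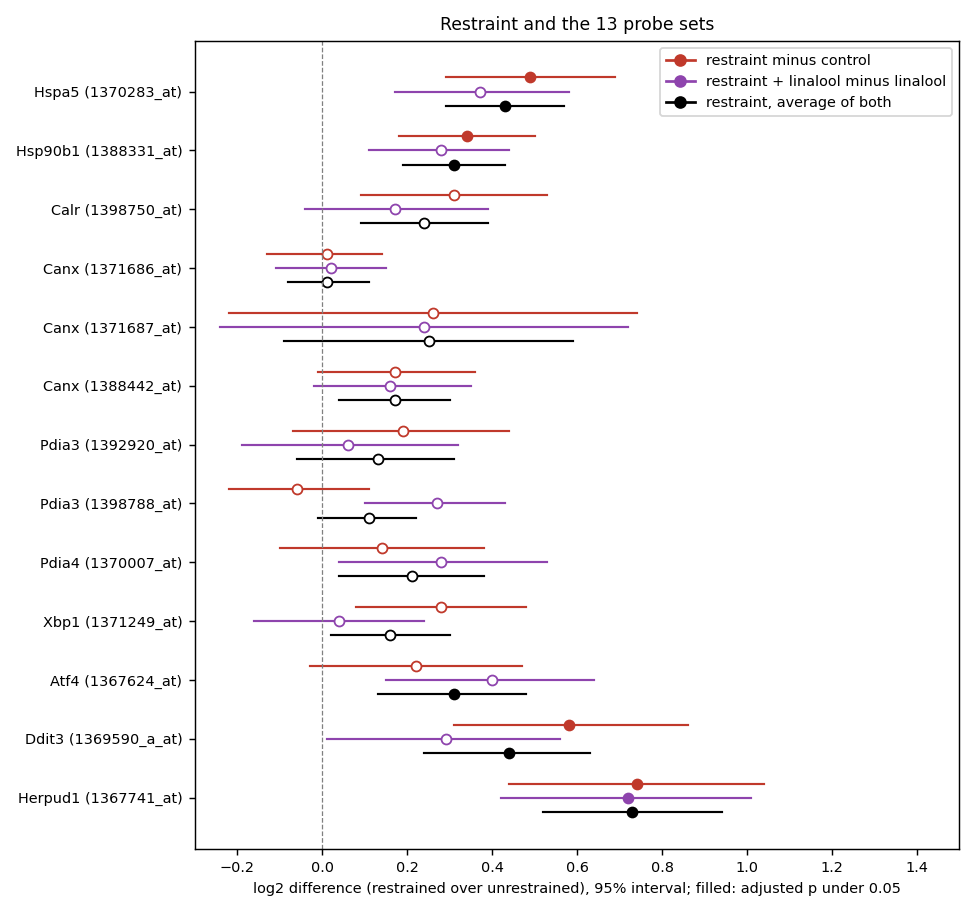
Log2 difference between restrained and unrestrained rats (x axis) for the 13 probe sets, without linalool (red), with linalool (purple) and averaged (black), with 95% intervals. Filled points passed the test: 4 without linalool, 1 with linalool and 5 on average.

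Linalool without restraint called none of the 13 probe sets against control. By limma 0 of 18625 probe sets passed (0%), and at an unadjusted p under 0.05 there were 2 of the 13 (Ddit3 and Xbp1), where 9.83% of all probe sets reached it. Differences ran from -0.08 to 0.37. Ddit3 had signals of 674, 623, 621 and 632 in linalool rats, against 524, 393, 478 and 587 in controls, so the groups did not overlap, as for 2.53% of all probe sets in that direction. Its difference of 0.37 (95% interval 0.09 to 0.64) did not pass (adjusted p = 0.371). Hspa5 differed by 0.18 (interval -0.03 to 0.38), Herpud1 by 0.21 (interval -0.09 to 0.51) and Xbp1 by 0.22 (interval 0.02 to 0.42). On the deposited scale, where the median of all probe sets shifted by -0.17, the differences were 0.16 for Ddit3, 0.09 for Hspa5, 0.01 for Herpud1 and 0.05 for Xbp1. These values share their control rats with the restraint comparison.

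Between restrained rats with and without linalool, Hspa5 differed by 0.06 (interval -0.14 to 0.26), Herpud1 by 0.18 (interval -0.11 to 0.48), Ddit3 by 0.07 (interval -0.20 to 0.35) and Atf4 by 0.20 (interval -0.04 to 0.45). Averaged over restraint, linalool gave 0 calls among the 13, with 2 at an unadjusted p under 0.05, against 0.714% of all probe sets called and 14.79% at an unadjusted p under 0.05. No interaction was called by limma among the 13 or among all probe sets (0%), and 1 of the 13 had an unadjusted p under 0.05, against 8.00% of all.

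Other genes of the pathway were taken from lists, with the brightest kept probe set for each gene. Of 24 measured ER folding factors outside the 10 genes, 2 rose with restraint on average and 0 fell, with a median of 0.06. Of all 18625 probe sets, 784 were called on average in either direction, and 493 (2.65%) rose. These were Manf, a secreted ER stress protein that protects neurons (0.31, SE 0.07, adjusted p = 0.0289), and Pdia6, a further disulfide isomerase (0.19, SE 0.05, adjusted p = 0.0431). Manf ran from 894 to 1302 in restrained rats, against 804 to 930 in controls, and from 1157 to 1392 in restrained rats with linalool, against 1020 to 1134 in linalool rats. The restrained rats with linalool stood above the linalool rats, and the pair without linalool overlapped. In the restraint comparisons without and with linalool 0 of 24 passed by limma, and the smallest p belonged to Manf (0.39, adjusted p = 0.104) and to Dnajc3, an ER cochaperone (0.38, adjusted p = 0.0814).

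Of 15 measured genes of ER-associated degradation, 0 rose and 1 fell on average. Among all 18625 probe sets 784 were called in either direction, 493 of them higher. That gene was Edem2, which trims mannose from misfolded glycoproteins and so marks them for degradation. It had 144 to 154 in restrained rats, against 180 to 209 in controls, and 132 to 174 in restrained rats with linalool, against 160 to 190 in linalool rats (difference -0.30, SE 0.06, adjusted p = 0.011). Without linalool the groups did not overlap, and with linalool they did. It thus went the other way from Herpud1. The list's median was 0.04. In the separate comparisons 0 of the 15 passed, with Edem2 the nearest at -0.35 (adjusted p = 0.0721) without and -0.25 (adjusted p = 0.168) with linalool.

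Of 13 measured stress sensors and transcription factors of the response, 1 rose on average and 0 fell, where 2.65% of all probe sets rose. The list's median was -0.05. The gene that rose was Cebpb, a factor that pairs with CHOP and that many other signals also induce (0.91, SE 0.19, adjusted p = 0.0145). It passed with linalool (1.34, adjusted p = 0.021), with signals of 140 to 398 in restrained rats with linalool, against 62 to 92 in linalool rats. In restrained rats it ran from 68 to 154, against 67 to 99 in controls. The sensor genes Eif2ak3 (PERK) and Atf6 had average differences of -0.05 and 0.08, neither called.

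Of 15 measured ATF4 targets, 2 rose on average and 0 fell, where 2.65% of all probe sets rose. The list's median was 0.18. All 15 average differences were above 0, as were 46.77% of those of all probe sets. Ddit4, an inhibitor of mTOR signalling that glucocorticoids also induce, rose by 1.46 (SE 0.09, adjusted p = 8.75e-08), and Slc3a2, the heavy chain of amino acid transporters, by 0.23 (SE 0.05, adjusted p = 0.0212). Mthfd2, a mitochondrial folate enzyme, passed under linalool (1.23, SE 0.25, adjusted p = 0.021), with 83 to 131 in restrained rats with linalool, against 16 to 58 in linalool rats. Its linalool rats also lay low beside controls, at 49 to 89. Chac1 and Asns, further targets, had average differences of 0.34 and 0.02, neither called. None of 21 measured genes of ER translocation and signal peptide removal passed on average by limma, with a median of 0.01, and Srp9 had the smallest p (0.21, adjusted p = 0.204).

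Outside the ER, all 9 measured cytosolic and mitochondrial heat shock genes rose with restraint on average, where 2.65% of all probe sets rose. Their median was 0.72, against 0.24 for the 13 ER probe sets. Dnajb1, a cochaperone of heat shock protein 70, rose by 1.51 (SE 0.15, adjusted p = 2.42e-05), Hspa1a by 3.70 (SE 0.38, adjusted p = 4.35e-05), Cryab, which encodes a small chaperone of the cytosol, by 0.72 (SE 0.10, adjusted p = 0.000444) and the cochaperone gene Bag3 by 1.00 (SE 0.14, adjusted p = 0.000728). Hspa1a cannot be told from its near-identical copy Hspa1b. Its signal ran from 368 to 3796 in restrained rats, against 137 to 152 in controls. In the separate comparisons 3 of the 9 genes rose without linalool and 7 with it, where 0.628% and 1.12% of all probe sets rose. The difference between the heat shock genes and the 13 ER probe sets was not tested.

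**Figure D5:**
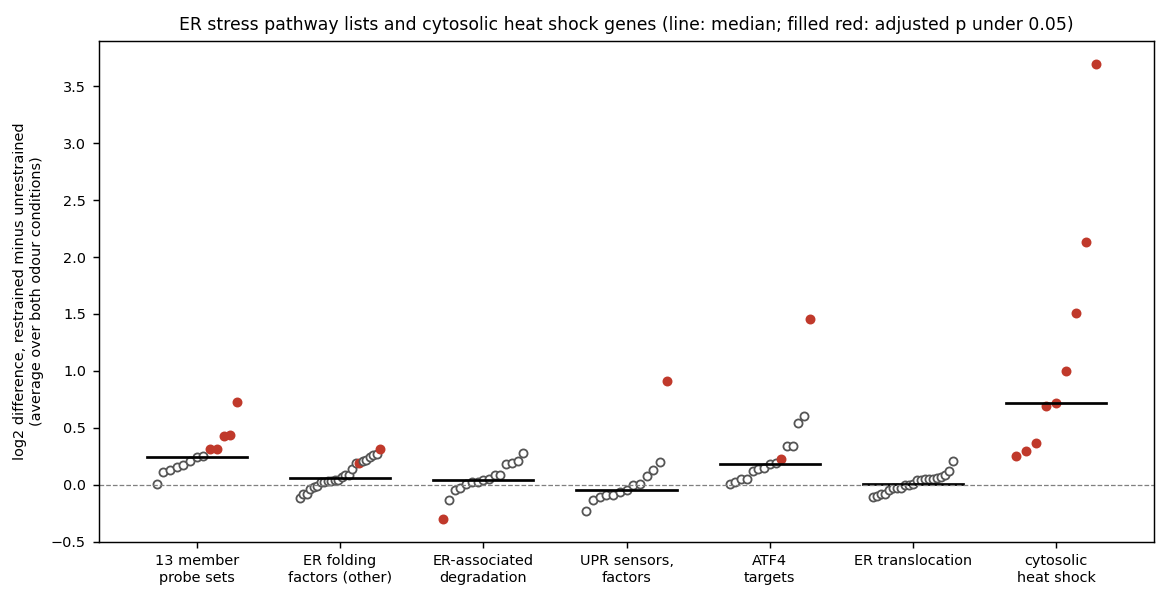
Average log2 difference between restrained and unrestrained rats (y axis) for the 13 probe sets and for genes of 6 lists; each point is a probe set, filled red where it passed the test, and lines are medians. The medians of the folding, degradation, sensor and translocation lists lie between -0.05 and 0.06, with few calls. The ATF4 targets have a median of 0.18, and all 9 heat shock genes passed.

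The genes whose pattern over the 16 arrays was most like that of Hspa5 were P4ha2, Jmjd6, Slc5a3, Elf2 and Chordc1, of 10299 genes compared. Their Pearson correlations with Hspa5 were 0.94, 0.93, 0.91, 0.91 and 0.90, and their Spearman correlations 0.94, 0.94, 0.91, 0.88 and 0.91. After removal of the group means the Pearson values were 0.79, 0.77, 0.69, 0.59 and 0.55. These are descriptions of arrays that share groups and normalization, picked as the highest of many.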

How the data were processed

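Hypothalamic RNA of 16 rats was measured on 1 Affymetrix rat array each. The deposited intensity values are linear MAS5 signals, per the submitters' processing notes, and for MAS5 the version and scaling target were not given in the sources used here. Signals were quantile-normalized over all 31099 probe sets, array controls included, a pseudocount of 16 was added and log2 was taken. Quantile normalization hides any change shared by most transcripts. Probe sets with a mean at or above the 40th percentile were kept. A model with 4 group means was fitted over all 16 arrays with limma 3.58.1 in R 4.3.3, and p-values were adjusted by Benjamini-Hochberg over all 18625 kept probe sets, also for single genes.

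Gene symbols came from the platform's annotation: 20826 probe sets had 1 symbol, 436 several and 9780 none. Members and lists were chosen with earlier results of these data known. All probe sets of the 10 genes are named, and from each list the called genes, up to 4 by smallest adjusted p, or else the gene with the smallest p. Eif2ak3, Atf6, Chac1 and Asns were named outside this rule, after their values were seen. The labels number rats 1 to 4 in each group. Deviations of same-numbered rats from their group means correlated between -0.16 and 0.23, so the numbers were not taken to pair rats. The p-values set each difference of means against the spread between these rats within groups. That spread is pooled over the 4 groups and moderated by limma across probe sets, and the number of arrays limits its precision. The fitting was tested on simulated data. Alternatives changed the scaling, pseudocount, filter, samples, blocks and covariates. Protein sequences were not used here.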

Additional observations from a re-analysis of the deposited data

Results flagged for a closer look

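Within groups of 4 rats, 6 of 52 sets of log2 values had a highest or lowest rat whose gap to the nearest other was a larger share of the group's range than Dixon's critical value for 4 samples, where chance gives about 1 in 20. The ratio given is that share. For Hspa5, restrained rat 3 was low, at 12.36 against 12.59 to 12.61 (ratio 0.905). For Hsp90b1, control rat 4 was high, at 11.51 against 11.31 to 11.32 (ratio 0.945). For Calr, restrained rat 2 was high, at 11.47 against 11.31 to 11.32 (ratio 0.935).

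Control rat 1 was low on 2 Canx probe sets. On 1371687_at it stood at 8.42 against 9.72 to 9.85, and on 1388442_at at 10.85 against 11.20 to 11.23, each with a ratio of 0.911. On the dimmer Pdia3 probe set, 1392920_at, restrained rat 2 was low, at 7.74 against 8.00 to 8.05 (ratio 0.847). No cause of these gaps was tested.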

How the results depend on the processing

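Counts are of the 13 probe sets, and calls over all tested probe sets, in either direction, moved as well. Between restrained and control rats these were 168 in the main fit and 54 on deposited values. They were 163 with median scaling, 102 without the filter and 96 in the BioC-low arrays. Under linalool they were 314, 1103, 262, 188 and 73 in the same order. On average they were 784, 1035, 718, 523 and 458, and for linalool among restrained rats 121, 32, 99, 46 and 0. In the average over odour conditions, Hspa5 (0.35 to 0.61) and Herpud1 (0.67 to 0.95) passed under all 29 alternatives run for them; the count of 5 was 2 in the BioC-low arrays, 7 with the beta-actin covariate, 4 with median scaling, no filter, the replicate block and the BioC block, and 4 to 6 with 1 array left out. Between restrained and control rats, 4 became 0 on deposited values, with only the compared groups and in the BioC-low arrays, 2 with median scaling and the BioC block, 1 without the filter, and 0 to 4 with 1 array left out. The BioC-low arrays include all arrays of this comparison and left its differences unchanged. With 2 alternatives added after seeing the data the count was 1 without control rats 1 and 2 and 1 with the summed Cga and Tshb signal as covariate. Under linalool, 1 became 2 on deposited values, with pseudocount 64, the 60th percentile filter, the BioC block, the beta-actin covariate and without control rats 1 and 2, 4 with limma's trend, 0 in the BioC-low arrays, and 0 to 2 with 1 array left out. For linalool among restrained rats, 1 became 0 on deposited values, with median scaling, without the filter, with only the compared groups, the BioC block, the BioC-low arrays and the pituitary covariate, and 0 to 1 with 1 array left out. Averaged over restraint, linalool gave 1 with limma's trend. With replicate number as a block, the counts were 2 between restrained and control rats and 0 for linalool among restrained rats; the numbers may not pair the rats. On deposited values the median of all probe sets shifted by 0.10 between restrained and control rats, 0.32 under linalool, 0.21 on average, -0.17 between linalool and control rats and 0.22 for the interaction. There all interactions but that of Ddit3 (-0.03) were above 0, that of Hspa5 at 0.04 against -0.11 on normalized values, where 4 of the 13 were above 0, and the linalool minus control differences of Hsp90b1 (-0.02), Canx 1371687_at (-0.12), Pdia3 1398788_at (-0.12) and Atf4 (-0.15) were below 0, against 0.12, 0.07, 0.04 and 0.02. Only uncalled differences changed sign. Between restrained and control rats, Canx 1371686_at was -0.02 with median scaling and without control rats 1 and 2, and 0 with the actin covariate, Canx 1371687_at -0.10 without those rats, and Pdia3 1398788_at 0.04 on deposited values. Under linalool, median scaling gave Canx 1371686_at -0.09 and Xbp1 -0.03, and the BioC-low arrays gave Xbp1 -0.07. On average, median scaling gave Canx 1371686_at -0.06. For linalool among restrained rats, deposited values gave Canx 1371686_at 0.04 and Xbp1 0.06, and Canx 1371687_at was -0.12 with the actin and -0.04 with the pituitary covariate. With 1 array left out, the differences that changed sign ran from -0.03 to 0.03 (Canx 1371686_at) and -0.08 to 0.40 (Canx 1371687_at) between restrained and control rats, -0.04 to 0.14 (Pdia3 1392920_at) under linalool, 0 to 0.02 (Canx 1371686_at) on average, and, for linalool among restrained rats, -0.01 to 0.13 (Canx 1371687_at), -0.04 to 0.14 (Pdia3 1392920_at), 0 to 0.15 (Pdia4), -0.08 to 0.03 (Xbp1) and -0.01 to 0.16 (Ddit3). The cause was not tested.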
